A study of Arabidopsis thaliana with 6 samples.

Results

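Enzymes that make and remove reactive oxygen species were followed in fresh seeds of Arabidopsis thaliana as 40 genes of 32833 in the deposited expression table. The genes were chosen by enzyme family and not by their values, although earlier results of these data were known: the 10 NADPH oxidases RBOHA to RBOHJ, 3 catalases, 7 superoxide dismutases, 7 ascorbate peroxidases, 6 glutathione peroxidases, the seed peroxiredoxin PER1 and 6 genes of the ascorbate-glutathione cycle. RNA-seq libraries of 2 genotypes were compared, the wild type Columbia-0 (Col-0) and the double mutant asf1a1b, with 3 libraries each. The labels name the mutant by both genes and give no allele, background line or number of lines, and they describe the tissue as fresh seeds collected within 24 hours. They also mention 4 days of stratification at 4 degrees, which leaves unclear if this applied to the seeds that were sequenced. Separate plants or harvests behind the libraries of a genotype are not stated, so p-values measure a spread between libraries that may be technical.

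ASF1A and ASF1B encode a chaperone that hands histones H3 and H4 to chromatin assembly. In seeds, reactive oxygen species have a double role, since they damage stored lipids, proteins and nucleic acids and also act as signals in the release of dormancy and in germination. NADPH oxidases of the plasma membrane pass electrons to oxygen outside the cell and form superoxide. Superoxide dismutases convert superoxide to hydrogen peroxide, and catalases, ascorbate peroxidases, glutathione peroxidases and peroxiredoxins remove the hydrogen peroxide. The ascorbate-glutathione cycle restores the ascorbate that ascorbate peroxidases consume, through monodehydroascorbate reductase, dehydroascorbate reductase and glutathione reductase.

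Levels are TPM (a share of all transcripts, corrected for transcript length) as rescaled by the authors, called rescaled TPM below. Between 44306623 and 47993664 reads were recovered from these values for each wild-type library, and between 42771383 and 56017355 for each mutant library. The summed level of ASF1A and ASF1B was 17.7 to 22.2 in Col-0 and 2.22 to 2.86 in asf1a1b, and both were lower in the mutant (limma adjusted p = 0.00022 and 0.00276). The 6 mature seed markers, cruciferins, oleosins and EM genes, summed to 68829 to 108831 rescaled TPM in the 6 libraries, and 0 of 6 passed (limma; 0 at an unadjusted p under 0.05 and 0 with limma-voom). Green leaf markers were higher in the mutant. The 5 of them summed to 10.2 to 24.5 in Col-0 and 55.2 to 109.6 in asf1a1b, with RBCS1A, LHCB1.3 and LHCA1 tested and higher, LHCB1.5 at 0 in all 6 libraries and RBCS2B at 0 in Col-0. The 5 seed coat markers summed to 0.619 to 2.09 in Col-0 and 5.03 to 7.39 in asf1a1b, with the 1 tested, PRX36, higher. LHCB1.3, LHCA1 and PRX36 reached the tested level described below only through the mutant, where they are high. Of the 4 endosperm markers 2 were tested and MAN7 was higher, and of 3 pollen markers 0 passed (limma; 0 at an unadjusted p under 0.05 and 0 with limma-voom). The part of these differences in the results below was not tested, and in whole seeds fewer cells of a type cannot be told apart from less RNA per cell.

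Differences were tested with limma on log2(rescaled TPM + 1) for the 14663 genes with a mean of at least 1, with adjustment over all of them and a threshold of 0.05. Log2 fold changes are of asf1a1b against Col-0, ± SE. Of the 40 genes, 29 were tested and 11 lay under that level. Higher in asf1a1b were 5 genes (FSD1, APX1, APX3, GPX2 and GR1), lower were 3 (CSD2, GPX7 and DHAR1), and 21 did not pass. The 8 called make up 27.6% of the 29, against 30.6% of all tested genes. The 17.2% called higher stand beside 16.1% of all genes, and the 10.3% called lower beside 14.5%. The families as a whole were therefore called about as often as any tested genes, and the differences lie between individual members. With the replicate number as a block, 7 were higher and 5 lower, where 39.7% of all genes were called. Every alternative setting that called a gene that did not pass is named below, with the gene or in the account of replicate 1. The labels do not state that libraries of the same number are pairs, so ratios within a replicate number are descriptions. The groups did not overlap for 16 of the 29 genes (55.2%), and for 47.5% of all tested genes. The median log2 fold change was 0.14 for the 29 and 0.01 for all genes, and the median size without sign was 0.36 and 0.32.

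**Figure D1:**
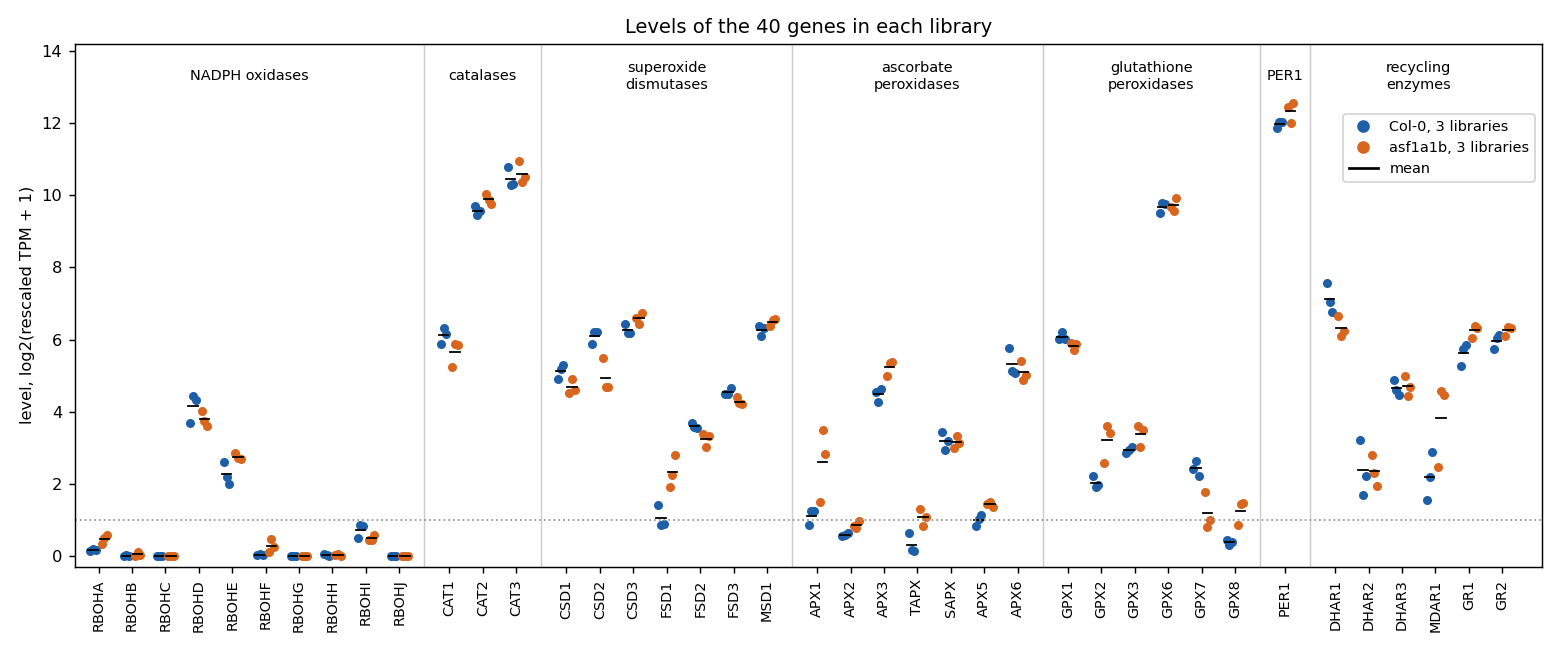
Level of each of the 40 genes in each library, as log2(rescaled TPM + 1), grouped by enzyme family. Points are libraries, black bars are means over 3 libraries, and the dotted line marks a level of 1 rescaled TPM. PER1, CAT3, CAT2 and GPX6 lie far above the rest of the 40, and most NADPH oxidases lie at or near 0.

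Most of the summed transcript of the 40 genes came from 4 of them in both genotypes. PER1, CAT3, CAT2 and GPX6 made up 89.3% to 92.4% of the summed level of the 40 genes in each of the 6 libraries. PER1 (AT1G48130), a peroxiredoxin that accumulates in the embryo and aleurone of seeds, alone gave 51.3% ± 3.49 of the sum in the wild type and 55.4% ± 3.77 in the mutant (SD, n = 3). It was at 3756, 4178 and 4207 rescaled TPM in Col-0 replicates 1, 2 and 3, and at 5554, 4126 and 6042 in asf1a1b. Replicates 1 and 3 of the mutant lay above all Col-0 libraries and replicate 2 lay among them, and the difference did not pass (log2 fold change 0.36 ± 0.24, limma adjusted p = 0.281).

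Among the NADPH oxidases, RBOHD and RBOHE were the only genes above the tested level, and neither passed the test. RBOHD (AT5G47910), the main oxidase of the immune oxidative burst in leaves, was at 11.8, 20.8 and 18.9 rescaled TPM in the wild type and at 15.3, 12.4 and 11.1 in the mutant. It gave 77.5% ± 8.39 of the summed oxidase level in the wild type and 65.2% ± 3.34 in the mutant (SD, n = 3). Its groups overlapped through replicate 1, in which the mutant was 1.29 times the wild type, while in replicates 2 and 3 it was at 0.595 and 0.587 times (log2 fold change -0.36 ± 0.22, limma adjusted p = 0.237). Without replicate 1 of both genotypes, an alternative chosen after seeing the data, RBOHD was lower in the mutant (log2 fold change -0.71, limma adjusted p = 0.000856). In that alternative 51.8% of all genes were called. Without Col-0 replicate 1 alone RBOHD was lower too (limma adjusted p = 0.0238).

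RBOHE (AT1G19230), an oxidase known from the anther tapetum, stood at 5.07, 3.60 and 2.98 rescaled TPM in the wild type and at 6.20, 5.56 and 5.49 in the mutant. All mutant libraries were above all wild-type libraries, and the difference missed the threshold (log2 fold change 0.49 ± 0.17, limma adjusted p = 0.0672). It passed with the replicate block (limma adjusted p = 0.0333), where 39.7% of all genes were called. It also passed with limma-voom on the recovered reads (limma adjusted p = 0.0499) and without Col-0 replicate 1 (limma adjusted p = 0.0103). In the other alternatives RBOHE did not pass, except without replicate 1 of both genotypes, where 51.8% of all genes were called. RBOHE overlaps AT1G19240 on the other strand, and the strand setting of the counting is not given in the sources used here, so reads of the pair cannot be told apart.

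The other 8 oxidases were at or near 0. RBOHC, known for root hair growth, RBOHG and RBOHJ, known with RBOHH for pollen tube growth, had 0 recovered reads in all 6 libraries, which allows a level of up to 0.00967 rescaled TPM in the wild type and 0.00919 in the mutant (3 counts over a group, counting error only). RBOHF, the partner of RBOHD in abscisic acid signalling and defence, had 2, 5 and 2 reads in the wild type, against 8, 66 and 28 in the mutant. RBOHA had 10, 14 and 14 reads in the wild type, against 23, 56 and 55 in the mutant. RBOHB, known from seed after-ripening, had 0, 1 and 0 reads in the wild type, against 0, 8 and 2 in the mutant.

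For RBOHA and RBOHF the mutant libraries had more reads than any wild-type library, at levels of at most 0.485 rescaled TPM. How often other genes under the tested level did so was not counted. Across all genes, 13988 to 14213 reached a level of 1 in a Col-0 library, and 14622 to 14923 in an asf1a1b library. RBOHF was 9.79 times as high by its means, and 5.89 times without asf1a1b replicate 2 or 15.1 times without Col-0 replicate 2. RBOHI went the other way in its means, with 43, 85 and 88 reads in the wild type, against 34, 49 and 56 in the mutant, and its groups overlapped. RBOHH had 3, 1 and 0 reads in the wild type, against 1, 6 and 0 in the mutant. These genes were not tested, and when no level was required RBOHA passed (limma adjusted p = 0.0307). That fit covered 25774 genes. The share of them called is not given here, which also limits the same fit for TAPX and GPX8 below. RBOHA overlaps AT5G07380 on the other strand, so reads of that pair cannot be told apart.

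**Figure D2:**
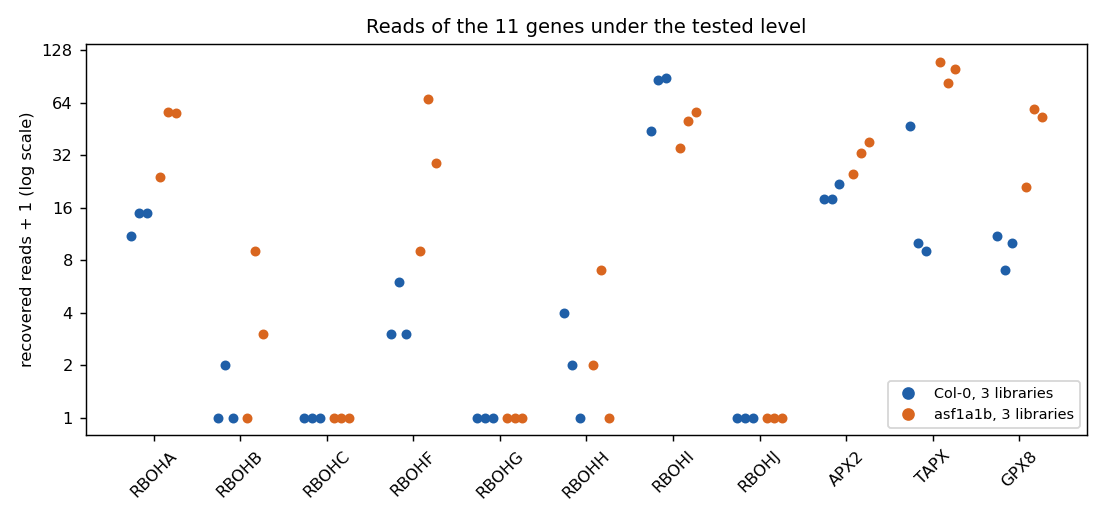
Recovered reads plus 1, on a log axis, of the 11 genes under the tested level. Each point is a library. RBOHC, RBOHG and RBOHJ lie at 0 reads in all 6 libraries. TAPX, GPX8, APX2, RBOHA and RBOHF are higher in all 3 asf1a1b libraries than in any Col-0 library. The share of all genes under the tested level that are so was not counted.

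The superoxide dismutases differed in direction. The plastid copper/zinc enzyme gene CSD2 was lower in the mutant and the iron enzyme gene FSD1 was higher, and the other 5 did not pass. Transcripts of CSD1 and CSD2 are known targets of miR398, a microRNA that lowers them when copper is scarce, as is the transcript of CCS, the chaperone that loads copper into these enzymes. FSD1 is known to rise under the same copper shortage. Because of that background the microRNA and the best pairing stretch in each transcript are shown, read from the TAIR10.1 genome of RefSeq, 5′ to 3′. In the microRNA, capitals mark the seed, bases 2 to 8. In the transcripts, capitals mark bases that form a Watson-Crick pair with it.
miR398b-3p: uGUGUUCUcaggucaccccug
miR398a-3p: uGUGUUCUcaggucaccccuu
CSD1: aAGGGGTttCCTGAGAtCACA
CSD2: tgcGGGTGACCTGgGaAACAtA
CCS: CAttGGGaGACCTGgGAACACt

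The microRNA miR398b-3p lies on the plus strand at chr5:4691107-4691127, and miR398c-3p has the same sequence. All 3 share the seed, and miR398a-3p differs from the others only in its last base. The CSD1 stretch lies in the 5′ untranslated region, across an intron between positions 2827177 and 2827685 of chromosome 1 (plus strand), and has 17 Watson-Crick pairs. The CSD2 stretch lies in the coding sequence at chr2:12015572-12015593 (plus strand), with 16 pairs and 1 unpaired base. The CCS stretch lies in the coding sequence at chr1:4267521-4267542 (minus strand), with 17 pairs and 1 unpaired base. Counting 1 for a mismatch or an unpaired base and 0.5 for a G-U pair, CSD1 and CSD2 scored 4.0, a score reached by 20 of 27444 scanned genes (0.0729%), and CCS scored 4.5, reached by 59 (0.215%). Among the other genes of the 40, APX6 scored 4.5, as low as CCS, and DHAR2 scored 5.0, while the other 5 superoxide dismutases scored 6.5 to 7.5. A pairing stretch is a description of sequence, and its part in the levels was not tested.

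CSD2 (AT2G28190, chromosome 2, 12014412 to 12016569, plus strand) was at 57.6, 73.6 and 72.4 rescaled TPM in the wild type and at 43.6, 24.6 and 24.7 in the mutant. Every mutant library lay below every wild-type library, and replicates 2 and 3 of the mutant lay well below its replicate 1. The means were 67.9 ± 8.89 and 31.0 ± 11.0 (SD, n = 3), and the log2 fold change was -1.15 ± 0.23 (SE, limma adjusted p = 0.0101). Within replicate 1 the mutant was at 0.757 times the wild type, and within replicates 2 and 3 at 0.335 and 0.341 times. Of 16 alternatives, the call was lost only without asf1a1b replicate 3 (limma adjusted p = 0.051). Its share of the summed level of these 7 genes, which leaves out the far more abundant MSD2, was 23.5% ± 3.26 in the wild type and 11.4% ± 3.91 in the mutant (SD, n = 3).

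FSD1 (AT4G25100, chromosome 4, 12884300 to 12887011, minus strand) was a minor transcript, at 1.66, 0.803 and 0.835 rescaled TPM in the wild type and at 2.78, 3.77 and 5.98 in the mutant. All mutant libraries were above all wild-type libraries, from 174 recovered reads in Col-0 and 707 in the mutant. The mean was 1.10 ± 0.484 in the wild type and 4.18 ± 1.64 in the mutant (SD, n = 3), 3.80 times as high, and the log2 fold change was 1.28 ± 0.26 (SE, limma adjusted p = 0.0105). Within replicate 1 the ratio was 1.68, and within replicates 2 and 3 it was 4.69 and 7.16. The call held in all 15 alternatives in which FSD1 was tested. FSD1 made up 1.53% ± 0.565 of the summed level of the 7 genes in the mutant (SD, n = 3).

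CSD1 (AT1G08830), the cytosolic copper/zinc enzyme, was at 29.1, 35.2 and 38.6 rescaled TPM in the wild type and at 22.0, 29.0 and 23.2 in the mutant. The highest mutant library, replicate 2, lay just under the lowest wild-type library, replicate 1, and the difference missed the threshold (log2 fold change -0.46 ± 0.15, limma adjusted p = 0.0563). It was called lower with the replicate block (limma adjusted p = 0.0259), with median-of-ratios scaling (limma adjusted p = 0.0391) and without Col-0 replicate 1 (limma adjusted p = 0.0237). CCS, which is not among the 40 genes, was at 70.0 ± 6.27 in the wild type and 69.0 ± 2.74 in the mutant (mean ± SD of 3; log2 fold change -0.02 ± 0.11, limma adjusted p = 0.917). The 3 MIR398 loci had 0 to 3 recovered reads per library, and reads at the loci do not measure the mature microRNA.

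The remaining dismutases showed smaller differences. The plastid iron enzymes FSD2 and FSD3 had means of 11.1 and 22.4 rescaled TPM in the wild type and 8.47 and 18.5 in the mutant, without overlap, and neither passed (limma adjusted p = 0.0752 and 0.107). FSD2 was called lower with median-of-ratios scaling (limma adjusted p = 0.0435) and with the 20 highest genes left out of the scaling total (limma adjusted p = 0.0453). CSD3, the peroxisomal copper/zinc enzyme, had the highest mean of the 7 genes over all libraries, 86.0 against 82.8 for MSD1. It was at 86.0, 71.3 and 71.6 in the wild type and at 95.4, 86.1 and 105.4 in the mutant. The lowest mutant library was just above the highest wild-type library (log2 fold change 0.32 ± 0.13, limma adjusted p = 0.0958), and it was called higher without Col-0 replicate 1 (limma adjusted p = 0.0422). MSD1, the mitochondrial manganese enzyme, had means of 76.1 and 89.4 with overlap (limma adjusted p = 0.187). The summed level of the 7 genes was 290.1, 281.0 and 296.6 in the wild type and 274.7, 260.5 and 280.3 in the mutant, a ratio of means of 0.940.

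**Figure D3:**
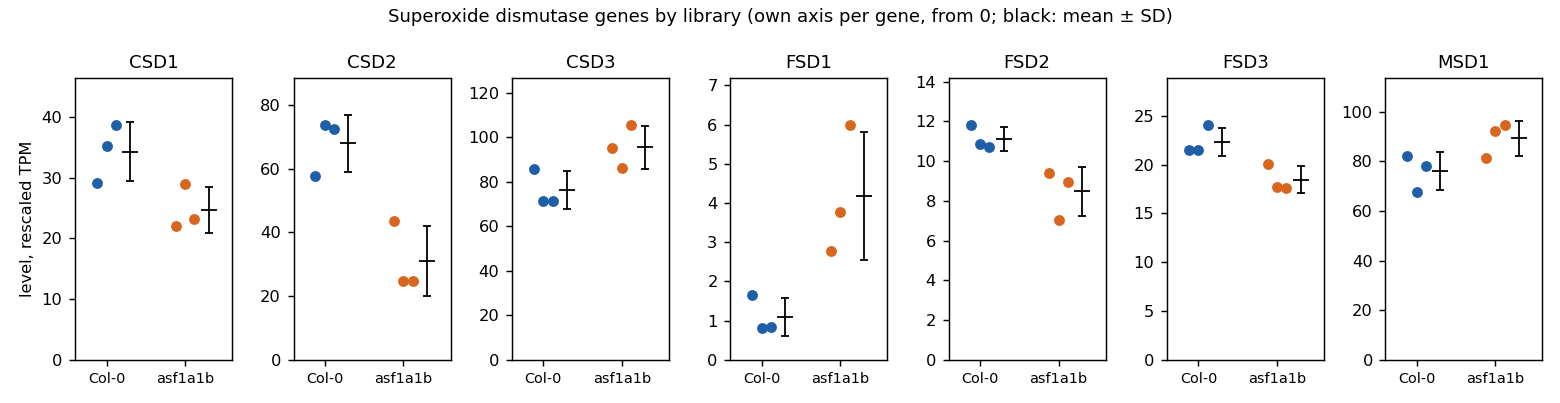
Level in rescaled TPM of the 7 superoxide dismutase genes in each library, with an axis from 0 for each gene. Points are libraries in the order of replicates 1, 2 and 3, and black marks are mean ± SD (n = 3). CSD2 is lower and FSD1 higher in all asf1a1b libraries than in any Col-0 library.

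The 3 catalases, which break down hydrogen peroxide in peroxisomes, did not pass the test (limma; 0 at an unadjusted p under 0.05 and 0 with limma-voom). CAT3 (AT1G20620) was the highest, at 1774, 1250 and 1272 rescaled TPM in the wild type and at 1977, 1314 and 1448 in the mutant. Replicate 1 was the highest library of both genotypes and the groups overlapped (log2 fold change 0.14 ± 0.23, limma adjusted p = 0.678). CAT2 (AT4G35090), the main catalase of leaves, was at 830.4, 702.1 and 755.4 in the wild type and at 1058, 941.3 and 870.8 in the mutant. Its groups did not overlap, but the difference did not pass (log2 fold change 0.33 ± 0.15, limma adjusted p = 0.142).

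CAT1 (AT1G20630), the catalase long known from seeds and pollen, was much lower in level than the other 2. It was at 57.6, 79.2 and 70.4 rescaled TPM in the wild type and at 36.7, 58.2 and 56.3 in the mutant. Within each replicate number the mutant was below the wild type, at 0.638, 0.735 and 0.799 times, though numbers 2 and 3 are not shown to be pairs. The groups overlapped by the margin between Col-0 replicate 1 and asf1a1b replicate 2. It missed the threshold without the replicate block (log2 fold change -0.46 ± 0.20, limma adjusted p = 0.119) and was called lower with it (limma adjusted p = 0.0167). CAT1 gave 3.14% ± 0.889 of the summed catalase level in the wild type and 2.03% ± 0.723 in the mutant (SD, n = 3). CAT1 and CAT3 are neighbours on chromosome 1, in the same orientation.

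Ascorbate peroxidases use ascorbate to reduce hydrogen peroxide. APX1 and APX3 were higher in the mutant, the other 3 tested did not pass, and 2 were under the tested level. APX3 (AT4G35000, chromosome 4, 16664724 to 16667721, minus strand), bound to the peroxisome membrane, was at 22.3, 18.4 and 23.9 rescaled TPM in the wild type and at 31.0, 39.7 and 40.8 in the mutant. All mutant libraries were above all wild-type libraries, with the mutant at 1.39, 2.15 and 1.71 times the wild type within replicates 1, 2 and 3. The means were 21.5 ± 2.80 and 37.2 ± 5.38 (SD, n = 3), and the log2 fold change was 0.76 ± 0.15 (SE, limma adjusted p = 0.01). Of 16 alternatives, this call too was lost only without asf1a1b replicate 3 (limma adjusted p = 0.0534). It made up 41.9% ± 4.87 of the summed class level in the mutant (SD, n = 3).

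APX1 (AT1G07890, chromosome 1, 2437281 to 2439665, plus strand), the main cytosolic enzyme of leaves, was a low transcript in these seeds. It was at 0.809, 1.36 and 1.39 rescaled TPM in the wild type and at 1.79, 10.2 and 6.09 in the mutant. The mutant libraries were all higher, but replicate 1 of the mutant lay closer to the wild type than to the mutant's other libraries. The mean was 1.18 ± 0.326 in the wild type and 6.04 ± 4.22 in the mutant (SD, n = 3), 5.09 times as high, or 3.33 times without asf1a1b replicate 2. The log2 fold change was 1.48 ± 0.45 (SE, limma adjusted p = 0.0431). The call ended in 7 of 15 alternatives, among them limma-voom on the recovered reads (limma adjusted p = 0.0515) and each omission of a library other than asf1a1b replicate 1 (limma adjusted p up to 0.143).

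The highest ascorbate peroxidase gene of the wild type, APX6 (AT4G32320), was at 53.5, 34.3 and 32.8 rescaled TPM in the wild type and at 41.4, 28.3 and 31.4 in the mutant. Its groups overlapped and replicate 1 was the highest library of both genotypes (log2 fold change -0.23 ± 0.22, limma adjusted p = 0.448). SAPX, of the plastid stroma and mitochondria, had means of 8.15 and 7.91 (limma adjusted p = 0.905). APX5, a peroxisomal relative of APX3, was at 0.996 ± 0.223 in the wild type and 1.69 ± 0.128 in the mutant (SD, n = 3). Its groups did not overlap, it was tested only through its mutant level, and it missed the threshold (log2 fold change 0.43 ± 0.14, limma adjusted p = 0.0555) but passed without the variance trend (limma adjusted p = 0.0386). TAPX, of the thylakoid membrane, had 46, 9 and 8 reads in the wild type, against 109, 82 and 99 in the mutant. Its mean was 4.51 times as high in the mutant, and 11.2 times without Col-0 replicate 1, which stood apart from the other wild-type libraries. TAPX was not tested at this level and passed when no level was required (limma adjusted p = 0.0314). APX2, known to be induced by heat and high light, had 17, 17 and 21 reads in the wild type, against 24, 32 and 37 in the mutant.

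Glutathione peroxidases, which in plants draw mainly on thioredoxin to reduce peroxides, split in direction. GPX2 was higher, GPX7 was lower, 3 did not pass and GPX8 was under the tested level. GPX2 (AT2G31570, chromosome 2, 13437974 to 13439923, minus strand), a cytosolic enzyme, was at 3.60, 2.79 and 2.93 rescaled TPM in the wild type and at 5.02, 11.2 and 9.66 in the mutant. All mutant libraries were above all wild-type libraries, with ratios of 1.39, 4.01 and 3.30 within replicates 1, 2 and 3. The means were 3.11 ± 0.434 and 8.61 ± 3.20 (SD, n = 3), and the log2 fold change was 1.17 ± 0.26 (SE, limma adjusted p = 0.0144). Leaving out replicate 2 of either genotype, or replicate 3 of the mutant, ended the call (limma adjusted p up to 0.0677). GPX2 overlaps AT2G08440 and AT2G31560 on the other strand, so its reads cannot be told from theirs.

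GPX7 (AT4G31870, chromosome 4, 15410078 to 15412486, plus strand), a plastid enzyme, was at 4.35, 5.24 and 3.66 rescaled TPM in the wild type and at 2.39, 0.750 and 0.977 in the mutant. Every mutant library was below every wild-type library, with replicate 1 of the mutant the nearest. The mean was 4.42 ± 0.796 in the wild type and 1.37 ± 0.887 in the mutant (SD, n = 3), 3.22 times as high in the wild type, or 5.12 times without asf1a1b replicate 1. The log2 fold change was -1.24 ± 0.26 (SE, limma adjusted p = 0.0116), and omission of Col-0 replicate 2 or of asf1a1b replicate 3 ended the call (highest limma adjusted p = 0.0575). GPX7 overlaps AT4G31875 on the other strand, and it is 81.3% identical over 643 bases to GPX1, the other plastid enzyme.

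GPX6 (AT4G11600), assigned to mitochondria and cytosol, made up 91.0% ± 0.718 of the summed class level in the wild type and 91.6% ± 0.648 in the mutant (SD, n = 3). It was at 733.5, 877.7 and 867.0 rescaled TPM in the wild type and at 821.4, 752.8 and 979.8 in the mutant, with overlap (log2 fold change 0.04 ± 0.17, limma adjusted p = 0.877). GPX1 had means of 66.8 ± 5.37 and 56.2 ± 4.51 without overlap, and did not pass (SD, n = 3; limma adjusted p = 0.141). GPX3, linked to abscisic acid signalling in guard cells, had means of 6.68 and 9.51 with overlap (limma adjusted p = 0.0882), and was called higher without asf1a1b replicate 2 (limma adjusted p = 0.0343). GPX8 had 10, 6 and 9 reads in the wild type, against 20, 58 and 52 in the mutant, 4.79 times as high by its mean level. It passed when no level was required (limma adjusted p = 0.0198), and it overlaps AT1G63470 on the other strand.

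Recycling of ascorbate and glutathione also showed opposite changes. DHAR1 was lower and GR1 was higher in the mutant, and the other 4 did not pass. DHAR1 (AT1G19570, chromosome 1, 6773302 to 6774523, minus strand), a dehydroascorbate reductase that returns ascorbate at the cost of glutathione, was the most abundant transcript of the 6 in every wild-type library and in replicate 1 of the mutant, and was below GR1 and GR2 in the mutant's replicates 2 and 3. It was at 188.2, 130.8 and 107.0 rescaled TPM in the wild type and at 99.1, 67.3 and 74.5 in the mutant. The lowest wild-type library lay just above the highest mutant library, and within each replicate number the mutant was at 0.526, 0.515 and 0.697 times the wild type. The means were 142.0 ± 41.7 and 80.3 ± 16.6 (SD, n = 3), and the log2 fold change was -0.79 ± 0.23 (SE, limma adjusted p = 0.0365). The call ended when replicate 1 or 2 of Col-0 or replicate 2 or 3 of asf1a1b was left out (highest limma adjusted p = 0.126), and when no level was required (limma adjusted p = 0.063).

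GR1 (AT3G24170, chromosome 3, 8729354 to 8734624, minus strand), the cytosolic glutathione reductase, was at 37.8, 52.7 and 56.9 rescaled TPM in the wild type and at 65.2, 82.7 and 78.9 in the mutant. All mutant libraries were above all wild-type libraries, with ratios of 1.72, 1.57 and 1.39 within replicates 1, 2 and 3. The means were 49.1 ± 9.99 and 75.6 ± 9.18 (SD, n = 3), and the log2 fold change was 0.63 ± 0.18 (SE, limma adjusted p = 0.0325). The call was lost narrowly under each of the 3 other scalings (limma adjusted p of 0.0514, 0.0606 and 0.06), when no level was required (limma adjusted p = 0.0521), and when replicate 2 of Col-0 or replicate 2 or 3 of asf1a1b was left out (highest limma adjusted p = 0.118). GR1 overlaps AT3G24160 on the other strand and AT3G24180 on its own. The plastid and mitochondrial enzyme GR2 had means of 62.2 and 76.0 with overlap (limma adjusted p = 0.154).

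MDAR1 (AT3G52880), a peroxisomal monodehydroascorbate reductase, had the largest log2 fold change of the 29 tested genes on the log2(rescaled TPM + 1) scale and did not pass. By the ratio of means APX1 stood above it, at 5.09 against 4.12 for MDAR1. MDAR1 was at 1.92, 3.53 and 6.30 rescaled TPM in the wild type and at 4.47, 23.0 and 20.9 in the mutant. Replicates 2 and 3 of the mutant lay far above the wild type, while replicate 1 lay within its range, although 2.33 times Col-0 replicate 1 (log2 fold change 1.63 ± 0.58, limma adjusted p = 0.0684). It was called higher with the replicate block (limma adjusted p = 0.00676) and without asf1a1b replicate 1 (limma adjusted p = 0.00484). DHAR2 and DHAR3 had log2 fold changes of -0.02 and 0.06 (limma adjusted p = 0.976 and 0.825). For DHAR2, the ratio of means was 0.905, and 1.46 without Col-0 replicate 1.

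**Figure D4:**
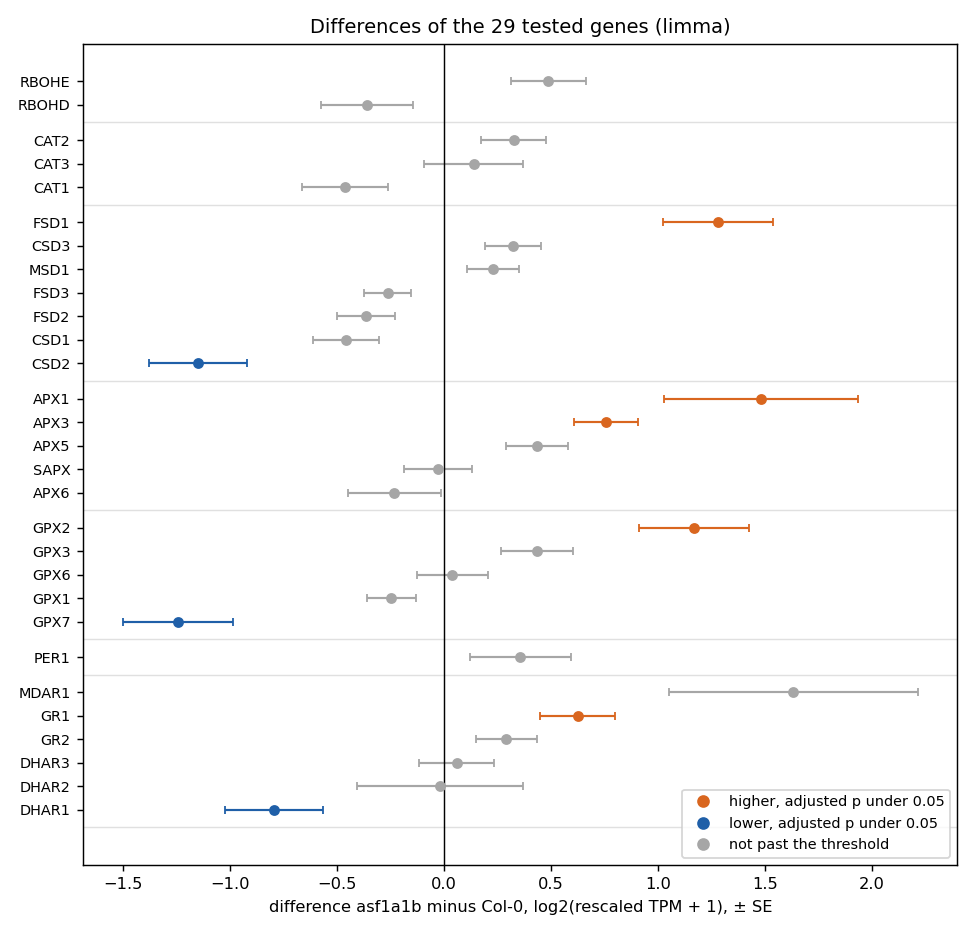
Log2 fold change of asf1a1b against Col-0 for the 29 tested genes, on the log2(rescaled TPM + 1) scale, with bars of 1 SE, grouped by family. Orange marks the 5 genes called higher, blue the 3 called lower and grey the 21 not past the threshold.

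Grouped by the compartment that each enzyme is known for, the 8 tested plastid enzymes had 6 negative and 2 positive log2 fold changes, with 0 called higher, CSD2 and GPX7 called lower and a median of -0.25. The 7 peroxisomal enzymes had 6 positive and 1 negative, with APX3 called higher, 0 called lower and a median of 0.33. The 6 tested cytosolic enzymes had 3 positive and 3 negative, with 3 called higher (APX1, GPX2 and GR1), 0 called lower and a median of 0.30. Over all tested genes 16.1% were called higher and 14.5% lower, with a median of 0.01. TAPX, a plastid enzyme under the tested level, had more reads in the mutant. FSD1 (called higher), DHAR1 (called lower), GPX3 and GPX6 were not assigned to a compartment. The counts called in each compartment, those of 0 included, depend on where these genes are placed. SAPX and GR2, known from mitochondria as well, were counted with the plastid. The difference between compartments was not tested.

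Replicate 1 stood apart in both genotypes across all genes, and the enzymes showed this about as often as other genes. In a principal component analysis of all tested genes, the genotypes lay apart on the first component (69.5% of the variance), and the second (18.9%) set replicate 1 of both genotypes apart from replicates 2 and 3. Replicate 1 was the highest library of both genotypes for 8 of the 29 genes (RBOHE, CAT2, CAT3, FSD2, APX6 and all 3 DHAR genes) and the lowest of both for 6 (CAT1, CSD1, APX1, MDAR1, GR1 and GR2), against 27.9% and 22.5% of all tested genes. In 6 of the 8 called genes, APX1, FSD1, GPX2, APX3, CSD2 and GPX7, the mutant differed least from the wild type within replicate 1. In GR1 it differed most there, and in DHAR1 replicate 1 lay between the others. Across all tested genes, too, asf1a1b replicate 1 was the mutant library nearest to Col-0 on the first component. It lay at 17.8, with asf1a1b replicates 2 and 3 at 47.7 and 45.9 and Col-0 at -41.1 to -31.7. The share of all tested genes that differed least within replicate 1 was not counted. Without replicate 1 of both genotypes, 9 of the 29 genes were higher and 8 lower, which is 58.6% where 51.8% of all genes were called. The genes gained were RBOHD, RBOHE, CAT1, CSD1, CSD3, FSD2, FSD3, MSD1 and MDAR1.

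**Figure D5:**
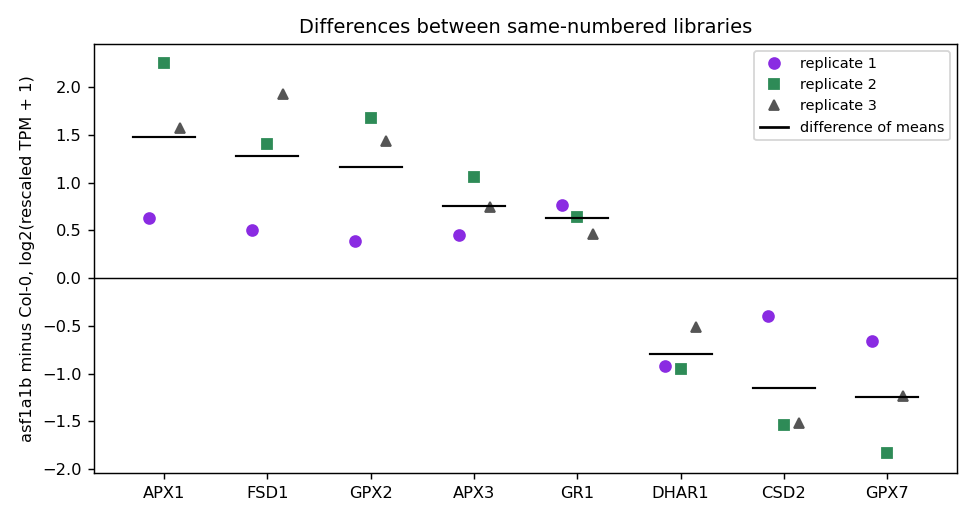
Difference of asf1a1b minus Col-0 in log2(rescaled TPM + 1) between libraries of the same replicate number, for the 8 called genes. Symbols mark replicates and black bars mark the difference of group means. All differences have the sign of the call, and those of replicate 1 are the smallest for APX1, FSD1, GPX2, APX3, CSD2 and GPX7.

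The authors' deposited table, which covers 15257 genes, holds 31 of the 40 and marks 4 as up, 1 as down and 26 as "ns". In the authors' deposited table FSD1 (log2 fold change 1.91), APX1 (2.34), TAPX (2.16) and MDAR1 (2.03) are up and GPX7 (-1.72) is down. It gives 13 of the 31 an adjusted p under 0.05, and the smallest log2 fold change it marks as up for any gene is 1.5. The largest adjusted p of any gene it marks as up or down is 0.0957. For CSD2 the authors' deposited table lists a log2 fold change of -1.16 with adjusted p = 4.6e-05, and marks it as "ns".

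Other genes of the pathway, in 7 lists of 60 genes, moved in both directions. Of 52 tested, 10 were called higher and 6 lower, 30.8% in all beside the 30.6% of all genes. Of 9 further family members, 8 were tested, 3 were higher and 1 was lower. The monodehydroascorbate reductase gene MDAR2 was at 1.08 ± 0.283 rescaled TPM in the wild type and 4.56 ± 1.80 in the mutant (SD, n = 3; limma adjusted p = 0.00917). The peroxisomal MDAR4 was at 32.8 ± 3.30 and 50.1 ± 1.69 (limma adjusted p = 0.00835), and both calls held in all alternatives in which these genes were tested. Higher too was APX4, of the plastid, at 0.973 ± 0.0578 and 2.22 ± 0.491 (limma adjusted p = 0.0141), and lower was GPX5, at 18.9 ± 2.79 and 11.3 ± 0.459 (limma adjusted p = 0.00858). APX4 reached the tested level only through the mutant, and its call ended in 2 of 15 alternatives (limma adjusted p up to 0.063), while that of GPX5 held in all 16. MSD2, a manganese superoxide dismutase outside the 7 above, was far more abundant than any of them, at 3041 ± 121 and 2707 ± 276 (SD, n = 3), and did not pass (limma adjusted p = 0.516).

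Of 12 peroxiredoxin and thioredoxin reductase genes, 11 were tested, 1 was higher and 0 were lower. PRXIIB was at 758 ± 89.4 rescaled TPM in the wild type and 1308 ± 122 in the mutant (SD, n = 3; limma adjusted p = 0.0115). It has close copies in PRXIIC and PRXIID, so values of single copies are uncertain, and its call ended in 2 of 16 alternatives (limma adjusted p up to 0.0639). Of 9 genes for ascorbate and glutathione synthesis, 8 were tested. GME, an epimerase on the main route to ascorbate, was higher, at 44.1 ± 7.67 in the wild type and 87.4 ± 10.8 in the mutant (limma adjusted p = 0.005), and GSH1, which catalyses the limiting step of glutathione synthesis, was lower, at 202 ± 21.2 and 141 ± 11.7 (limma adjusted p = 0.0231). The GME call held in all 16 alternatives, and the GSH1 call ended in 4 of them (limma adjusted p up to 0.0983).

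Of 11 genes for other sources of hydrogen peroxide, 10 were tested, 2 were higher and 3 lower. The polyamine oxidase genes PAO1 and PAO5 fell from 17.6 ± 1.41 to 4.34 ± 0.808 rescaled TPM and from 4.61 ± 0.176 to 1.36 ± 0.305 (mean ± SD of 3; limma adjusted p = 0.000666 and 0.00163), and both calls held in all alternatives in which they were tested. PAO2 rose from 14.1 ± 2.19 to 28.0 ± 6.42 (limma adjusted p = 0.0114), a call that ended in 2 of 16 alternatives (limma adjusted p up to 0.0579). Of 6 regulators of NADPH oxidases, all were tested and the calcium sensor gene CBL9 was lower, at 3.17 ± 0.353 and 2.04 ± 0.255 (limma adjusted p = 0.041), a call that ended in 6 of 15 alternatives (limma adjusted p up to 0.152). Of 5 alternative oxidase genes, 2 were tested and AOX1A, known to respond to mitochondrial stress, was higher, at 0.201, 0.293 and 0.480 in the wild type and 0.785, 6.16 and 3.22 in the mutant (limma adjusted p = 0.0381), a call that ended in 5 of 14 alternatives (limma adjusted p up to 0.128). AOX1A reached the tested level only through the mutant.

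Of 8 genes known to respond to oxidative stress, 7 were tested, 2 were higher and 0 lower. TI1, a trypsin inhibitor gene, was at 9.95, 15.5 and 17.1 rescaled TPM in the wild type and at 48.0, 124.3 and 177.7 in the mutant (limma adjusted p = 0.00486), a call that held in all 16 alternatives. AT1G19020 was at 0.812 ± 0.218 and 2.27 ± 0.765 (SD, n = 3; limma adjusted p = 0.0229). It reached the tested level only through the mutant, and its call ended in 4 of 15 alternatives (limma adjusted p up to 0.0975). The regulator genes ZAT12 and ZAT10 and the heat shock factor gene HSFA4A did not pass (limma adjusted p = 0.243, 0.412 and 0.877).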

How the data were processed

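RNA-seq of 6 seed libraries was used, 3 per genotype. Groups and replicate numbers follow the sample titles. The submitters' processing notes name fastp 0.23.4, HISAT2 2.2.1 and the build TAIR10. The counter, annotation, strand setting and the authors' test were not given in the sources used here. As values the authors deposited signal values that the file calls TPM, but library totals run from 915126 to 1049698, so they are TPM rescaled by an unnamed step. The authors also deposited a table with log2 fold changes, p-values and adjusted p-values, and a direction call in another column. Columns of other samples numbered 0.

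Values times merged exon length (RefSeq, TAIR10.1) came out as multiples of a fixed step in each library, within 0.1 of a whole number for 99.3% to 99.4% of low values, and reads were recovered for 32548 genes. The test foreseen for TPM was used: limma 3.58.1 with lmFit and eBayes (R 4.3.3, trended variance) on log2(value + 1), mean of at least 1, genotype only, two-sided, Benjamini-Hochberg over 14663 genes. Fold changes on this scale understate those of low genes, and ratios are of mean deposited values. Tests and read recovery were checked on simulated data. Members and lists were chosen with earlier results of these data known. Members past the threshold and the highest of each class are described library by library, and up to 3 called genes of each list are named (MDAR4 was added after its values were seen). The sequences come from the RefSeq genome of TAIR10.1. Pairing with miR398b-3p was scored over the longest transcript of each gene with numpy 2.4.6, and gene copies were sought with blastn 2.17.0. Of the 40 genes, 14 overlap another annotated gene. Besides those named above these are RBOHB, RBOHG, CAT2, CSD1, CSD3, APX5, GPX3 and GPX6. Each of these is overlapped on the other strand, so their reads cannot be told apart either. In the best-scoring match of each gene to another, of at least 100 bases, identity was at most 83.1%, except that FSD2 shares 185 bases at 96.8% with AT4G00651. Python 3.11.15, pandas 2.3.3 and matplotlib 3.10.9 were used for the rest.

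Replicate numbers were checked for pairing. Across the tested genes, departures from the group mean were correlated between libraries with the same number. The correlations were 0.427, 0.144 and 0.327 for numbers 1, 2 and 3, all above the line of 0.1 used here. The mutant's replicate 2 was nearer to replicate 3 of the wild type (0.381), and the labels give no batch. These values set replicate 1 apart and do not show that numbers 2 and 3 are pairs. Fits with the replicate block are alternatives. No replicate pair agreed within sampling noise (the median chi-square of a gene was at least 2.48). Other alternatives were a pseudocount of 0.1, a minimum mean of 5 or none, 3 scalings, no variance trend, limma-voom on recovered reads and leaving out each library.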

Additional observations from a re-analysis of the deposited data

How the results depend on the processing

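Of the 458 values of the 29 tested genes under 16 alternatives, 392 kept their direction and side of the threshold, 26 lost the call, 24 gained it and 16 changed sign. The count over all genes, 4494, was 2544 with a minimum mean of 5, 1767 to 4999 when a library was left out and 7588 without replicate 1 of both genotypes, an alternative chosen after seeing the data. The same alternatives gave 3, 1 to 6 and 9 enzyme genes higher (5 in the report). The count lower (3 in the report) was 5 with the replicate block, 5 with median-of-ratios scaling, 0 to 4 with a library left out and 8 without replicate 1 of both. The other pathway genes called, 16 in the report, numbered 10 with a minimum mean of 5, 7 to 23 with a library left out and 28 without replicate 1 of both. The summed ascorbate-glutathione cycle level in asf1a1b was 277.7, and 271.0 with median-of-ratios scaling. The lowest counts came without asf1a1b replicate 3, and for genes higher, 2 were left without Col-0 replicate 2. The causes were not tested.

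The replicate block added RBOHE, MDAR1, CAT1 and CSD1 to the calls and changed no other call among the 29 genes. Genes that changed sign were all far from the threshold. With a library left out the log2 fold change ran from -0.034 to 0.30 for CAT3, from -0.15 to 0.092 for SAPX, from -0.066 to 0.12 for GPX6, from -0.36 to 0.40 for DHAR2 and from -0.086 to 0.19 for DHAR3. Without replicate 1 of both genotypes it was 0.16 for SAPX, -0.023 for GPX6 and 0.18 for DHAR2. With median-of-ratios scaling it was -0.031 for GPX6 and -0.0090 for DHAR3, and with a pseudocount of 0.1 it was 0.0023 for DHAR2. With 3 libraries per genotype, differences of the size seen for CAT1, RBOHE or CSD1 lie near the limit of the test, and genes under 1 rescaled TPM rest on few reads.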
